A study of Mus musculus with 3 samples.

Results

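The 8 genes described here are the metallothioneins Mt1, Mt2 and Mt3, the metal exporters Slc30a1, Slc30a3 and Slc30a10 of the Slc30 family, and the metal importers Slc39a12 and Slc39a14 of the Slc39 family. They were taken by symbol from a table of 31040 genes, and all 8 were found. Their unique molecular identifiers (UMIs, 1 per captured RNA molecule) were summed per mouse over each cell type and over the sub-clusters of astrocytes, oligodendrocytes and microglia. Nuclei were isolated from lumbar cord of 12 mice at an age of 90 days and their RNA was sequenced per nucleus. SOD1G93A mice carry a human SOD1 transgene in every cell, whose mutant product causes an amyotrophic lateral sclerosis-like disease (B6.Cg-Tg(SOD1*G93A)1Gur/J), and WT mice are C57BL/6J controls without it. Each genotype had 6 mice, 3 of each sex, and each of the 3 hashtagged pools (A, B and C) contained a female and a male of each genotype. The question addressed was in which cell types the genotype changed the RNA of genes that bind or move zinc.

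Metallothioneins are small proteins rich in cysteine that bind zinc and copper and buffer both metals in the cytosol. Mt1 and Mt2 are present in many cell types and are induced by metals, glucocorticoids and oxidative stress, whereas Mt3 is the form best known from the nervous system. Slc30 proteins move zinc out of the cytosol: Slc30a1 across the plasma membrane, Slc30a3 into synaptic vesicles, and Slc30a10 chiefly exports manganese. Slc39 proteins move metals into the cytosol, Slc39a12 carrying zinc in brain and Slc39a14 carrying zinc, manganese and iron. SOD1, the product of the transgene, is itself an enzyme that holds copper and zinc.

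The metallothionein genes lie in 1 cluster on chromosome 8 of the mouse genome (GRCm38, plus strand, GENCODE vM21). Mt3 spans chr8:94152607-94154146, Mt2 spans chr8:94172664-94173568 and Mt1 spans chr8:94179082-94180327. Between Mt3 and Mt2 lie 18517 bases, and between Mt2 and Mt1 5513 bases. Slc30a10 spans chr1:185454848-185468762 and Slc30a1 chr1:191906767-191913247, both on the plus strand. Slc39a12 spans chr2:14388316-14494977 on the plus strand, Slc30a3 spans chr5:31086106-31108237 on the minus strand and Slc39a14 spans chr14:70303469-70351425 on the minus strand. On the opposite strand, the antisense RNA Gm45774 overlaps Mt2, the antisense RNA 1700034H15Rik overlaps Slc30a1, the lincRNA Gm2061 overlaps Slc30a10, and Dnajc5g and Gm9924 overlap Slc30a3.

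The sequence around the start of the metallothionein genes is shown because each of the 3 was called higher in SOD1G93A astrocytes. Metal response elements, the short motifs bound by the zinc-sensing factor Mtf1, are known near the start of such genes. Whether these motifs had a part in the genotype effect was not tested. The sequences are RefSeq's, read 5′ to 3′ on the strand of the gene, in GRCm38.p6, and 7 of the 8 genes had an entry (Slc39a14 had none). Capitals mark each match to TGCACNC or TGCGCNC, the core of the element, searched on both strands. Slc39a12, the zinc importer with the most astrocyte UMIs of the 8 genes, stands beside them as a window without a match. The first 4 lines are the 250 bases before the RefSeq start and the last 3 are stretches of 30 bases after it. RefSeq and GENCODE starts coincide for Mt3 but differ for Mt1, Mt2 and Slc39a12. The Mt2 stretch after the RefSeq start lies wholly before the GENCODE start at 94172664. The Mt1 and Slc39a12 stretches before the RefSeq start run past the GENCODE starts at 94179082 and 14388316.
Mt1 before the start, chr8:94178839-94179088, plus strand: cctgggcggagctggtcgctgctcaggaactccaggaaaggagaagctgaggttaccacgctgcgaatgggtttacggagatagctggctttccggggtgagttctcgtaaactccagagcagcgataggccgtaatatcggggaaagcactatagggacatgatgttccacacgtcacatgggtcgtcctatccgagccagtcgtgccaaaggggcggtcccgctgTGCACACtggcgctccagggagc
Mt2 before the start, chr8:94172368-94172617, plus strand: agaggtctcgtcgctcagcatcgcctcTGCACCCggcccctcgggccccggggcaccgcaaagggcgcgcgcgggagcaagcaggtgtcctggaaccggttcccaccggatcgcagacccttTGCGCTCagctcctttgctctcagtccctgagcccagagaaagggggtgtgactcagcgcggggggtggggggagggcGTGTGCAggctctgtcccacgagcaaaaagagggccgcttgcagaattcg
Mt3 before the start, chr8:94152357-94152606, plus strand: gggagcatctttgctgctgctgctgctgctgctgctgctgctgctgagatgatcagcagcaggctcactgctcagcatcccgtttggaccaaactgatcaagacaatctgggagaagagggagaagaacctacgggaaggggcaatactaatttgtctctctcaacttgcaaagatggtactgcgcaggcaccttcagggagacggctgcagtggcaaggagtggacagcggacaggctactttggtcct
Slc39a12 before the start, chr2:14388148-14388397, plus strand: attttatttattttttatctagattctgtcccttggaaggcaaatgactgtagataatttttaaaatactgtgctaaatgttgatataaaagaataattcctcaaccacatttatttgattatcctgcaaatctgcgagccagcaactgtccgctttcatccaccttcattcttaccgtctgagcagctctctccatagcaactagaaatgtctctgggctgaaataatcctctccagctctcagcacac
Mt1 after the start, chr8:94179089-94179118, plus strand: tcTGCACTCcgcccgaaaagTGCGCTCggc
Mt2 after the start, chr8:94172618-94172647, plus strand: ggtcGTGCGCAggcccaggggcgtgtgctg
Mt3 after the start, chr8:94152613-94152642, plus strand: agtggagactcgggacagcagTGCACACac

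Mt2 held 4 matches in the window of 250 bases before and 50 after its start, on the strand of the gene from base -223 to -217 and from base -128 to -122, and on the opposite strand from base -50 to -44 and from base 5 to 11, where base 1 is the first base of the RefSeq transcript and base -1 the one before it. Mt1 held 3, from base -23 to -17, from base 3 to 9 and from base 21 to 27. Mt3 held none before its start and 1 after it, from base 28 to 34. Among the transporters, Slc30a10 held 3, of which the pair at bases -233 to -227 and -232 to -226 overlap on opposite strands, Slc30a1 held 2, and Slc30a3 held 1 in the window of its upstream start and 0 in that of its other start. Of 32851 RefSeq promoter windows of the same length, 25.7% held at least 1 match, 1.97% at least 3 and 0.517% at least 4. A match describes the letters only, and binding of the factor was not measured here. Bases outside these windows were not searched, so that the counts and positions depend on the start used.

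The 14662 nuclei held 206486779 UMIs, with 548 to 2259 nuclei and 6411715 to 36668441 UMIs per mouse. Of 14647 distinct barcodes, 15 occurred in more than 1 pool. Levels are given as UMIs of the gene per 1000000 UMIs (CPM) of the cell type in a mouse. UMIs were not scaled by gene length, so that levels are compared between groups of nuclei and not between genes. The labels of astrocytes, endothelial cells, ependymal cells, fibroblasts, oligodendrocytes, OPCs, neurons and motor neurons matched their marker genes, each list having its highest median in its own type. Nuclei labelled microglia were also highest for their 3 markers, at a median of 81.1 CPM, but held 505 CPM of the neuronal and 2377 CPM of the oligodendrocyte markers. Nuclei labelled Schwann or meningeal held 114 CPM of their own markers, more than any other type, beside 5195 CPM of the oligodendrocyte markers. They also held 453 CPM of the astrocyte markers, the most outside astrocytes. Markers of other types were also present in astrocyte nuclei, with 1519 CPM of the oligodendrocyte list beside 1397 CPM of their own, and in motor neuron nuclei, with 1183 CPM of the OPC list beside 1219 CPM of their own, and their part in the results was not tested.

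In WT mice, Mt1 and Mt2 had their highest levels in astrocytes, Schwann or meningeal cells and endothelial cells, and Mt3 in Schwann or meningeal cells, astrocytes and ependymal cells. Mt1 had 323.7, 654 and 800 CPM (lowest, median and highest of 6 mice) in Schwann or meningeal cells, 379.7, 470.5 and 738.2 CPM in astrocytes and 165, 346 and 510.2 CPM in endothelial cells. These 3 types overlapped in order. The next type, ependymal cells, had a median of 71.3 CPM from 16 UMIs in 5 WT mice. Its highest mouse, at 164.1 CPM, lay just below the lowest endothelial value of 165 CPM. Fibroblasts, with 6 UMIs in 5 WT mice, reached 402.3 CPM. In neurons the median of Mt1 was 21.6 CPM, although neurons, the most numerous nuclei, gave 22.3% of all UMIs of the gene over the 12 mice and astrocytes 46.0%. Mt2 was highest in astrocytes at a median of 183 CPM, overlapping the 107 CPM of Schwann or meningeal cells. Mt3 was highest in Schwann or meningeal cells, at 334.1, 507.5 and 760.5 CPM, which did not overlap the 144.5, 175.2 and 239.3 CPM of astrocytes. Astrocytes and ependymal cells, with a median of 165 CPM of Mt3 from 30 UMIs in 5 WT mice, overlapped. Endothelial cells lay below both at a median of 54.1 CPM. Neurons had a median of 19.0 CPM of Mt3 but, being the most numerous nuclei, held 38.8% of its UMIs over the 12 mice, against 28.1% in astrocytes. The types also differed in the percent of mitochondrial UMIs, a sign of cytoplasm left on nuclei. Its median over WT mice was 0.683 in astrocytes, 1.97 in Schwann or meningeal, 3.48 in endothelial, 5.14 in ependymal cells and 1.65 in fibroblasts. It was 0.0739 in motor neurons, 0.122 in microglia, 0.174 in neurons, 0.218 in OPCs and 0.241 in oligodendrocytes. The part of this in the order of the types was not tested.

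The transporters divided the cell types differently. Slc30a1, the plasma membrane zinc exporter, was concentrated in endothelial cells, which held 71.4% of its UMIs, at 295.3, 397.8 and 472.3 CPM in WT mice. All other types lay below without overlap, the next median being 17.3 CPM in Schwann or meningeal cells. The markers of the endothelial type, Flt1, Cldn5 and the mural cell gene Pdgfrb, were only summed. Endothelial and mural cells within this type are therefore not told apart. Slc39a12 was highest in astrocytes at 764.1, 974.6 and 1228 CPM, overlapping the 422.2 to 820.6 CPM of ependymal cells, and astrocytes held 69.8% of its UMIs. The next type, oligodendrocytes, had a median of 80.5 CPM and did not overlap ependymal cells. Slc39a14 was highest in astrocytes, at 53.5, 62.1 and 101.2 CPM, above the 31.9, 40.2 and 47.5 CPM of motor neurons, while neurons had 27.9 to 32.9 CPM and 67.0% of its UMIs. Slc30a10 had a median of 55.9 CPM in endothelial cells and of 16.3 CPM in astrocytes, without overlap. Neurons, at a median of 4.24 CPM, held 49.5% of its UMIs, endothelial cells 22.2% and astrocytes 15.9%. The median of 162 CPM of Slc30a10 in WT fibroblasts rested on 9 UMIs. Slc30a3, which loads synaptic vesicles with zinc, had 75.8% of its UMIs in neurons, at 5.78, 7.42 and 9.05 CPM in WT mice. Microglia overlapped at 3.86, 5.83 and 10.6 CPM, and the higher median of 28.9 CPM in Schwann or meningeal cells rested on 20 UMIs. Neurons held 93983508 of the 130082704 UMIs of all genes in WT mice and 52358980 of 76404075 in SOD1G93A mice. A large share of a gene's UMIs in neurons is thus not by itself a sign of a high level there.

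**Figure D1:**
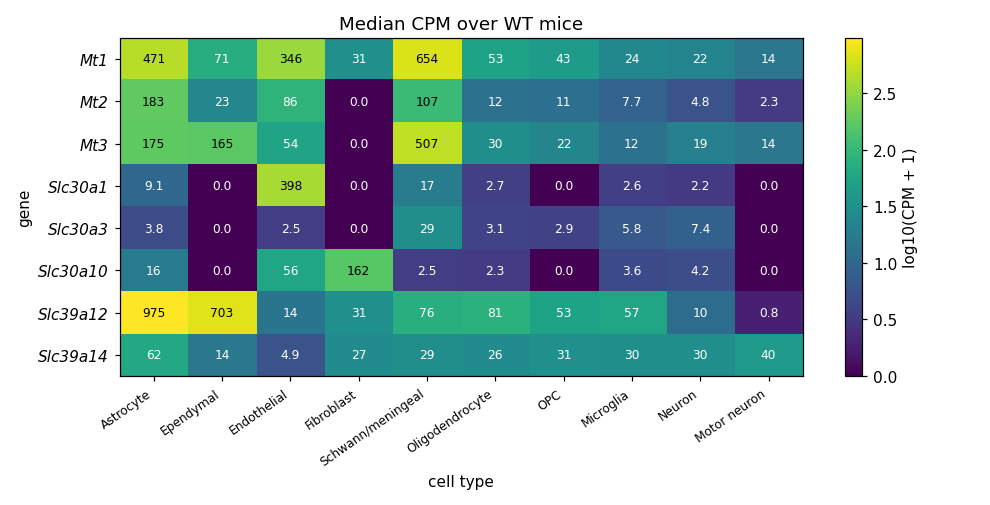
Median CPM over the WT mice of each of the 8 genes (rows) in each of the 10 cell types (columns), with the value printed in each cell and colour on a log10(CPM + 1) scale. Mt1 is highest in Schwann or meningeal cells (654 CPM) and astrocytes (470.5 CPM), Slc30a1 in endothelial cells (397.8 CPM), and Slc39a12 in astrocytes (974.6 CPM) and ependymal cells (703 CPM).

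The 3 metallothioneins were higher in SOD1G93A than in WT astrocytes, by 1.81-fold for Mt1, 1.65-fold for Mt2 and 1.51-fold for Mt3 in mean CPM. Mt1 had 744.6, 903.7 and 1303 CPM in SOD1G93A mice and 379.7, 470.5 and 738.2 CPM in WT mice. No WT mouse reached the lowest SOD1G93A mouse, a separation in that direction found for 0.899% of the 9347 genes tested. The log2 fold change from limma-voom, with sex and pool in the model, was 0.79 (SE 0.11, FDR = 0.000332). As follows from that separation, all 6 SOD1G93A mice exceeded their WT partner of equal sex in their pool.

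Mt2 had 224.7, 316.4 and 386.8 CPM in SOD1G93A astrocytes and 123.8, 182.9 and 261.8 CPM in WT astrocytes. Its log2 fold change was 0.65 (SE 0.13, limma FDR = 0.0113). Mt3 had 203.4, 267.9 and 365.4 CPM against 144.5, 175.2 and 239.3 CPM, with a log2 fold change of 0.52 (SE 0.12, limma FDR = 0.0297). The genotypes overlapped for both genes, yet every SOD1G93A mouse was above its WT partner of sex and pool. Mt3 is the least firm of the 3, since without the SOD1G93A female of pool B, the SOD1G93A male of pool A or the WT male of pool C its FDR from limma was 0.107, 0.137 and 0.139. Without the pool term, limma called Mt1 but neither Mt2 nor Mt3 (FDR = 0.131 and 0.132).

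**Figure D2:**
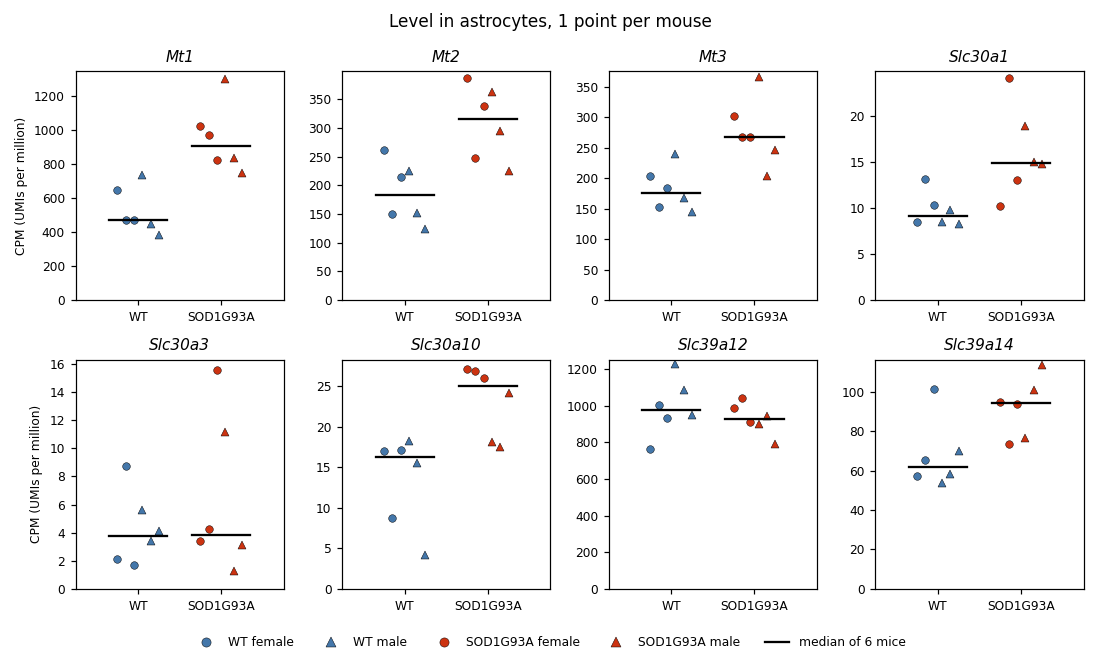
Level of each of the 8 genes in astrocytes, in CPM on a linear axis from 0, with 1 point per mouse (circles, females, and triangles, males) and a bar at the median of 6 mice. For Mt1 the SOD1G93A mice lie at 744.6 to 1303 CPM and the WT mice at 379.7 to 738.2 CPM, while for Slc39a12 the genotypes lie over each other.

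The transporters did not pass the threshold in astrocytes. Thus 3 of the 7 genes tested were called at FDR < 0.1, all higher in SOD1G93A, against 1.38% of all genes called in that direction and 2.29% in either. By limma, 6 of the 7 had an unadjusted p under 0.05, against 13.6% of all 9347 genes. The members were chosen with earlier results of these data known, so these counts are no independent test of the group. Slc30a1 had 10.2, 14.8 and 24.1 CPM in SOD1G93A and 8.25, 9.13 and 13.1 CPM in WT astrocytes, from 73 and 55 UMIs, with a log2 fold change of 0.71 (SE 0.29, limma FDR = 0.271). Slc30a10 had 17.5, 25.1 and 27.1 CPM against 4.13, 16.3 and 18.3 CPM, a log2 fold change of 0.67 (SE 0.27, limma FDR = 0.256). The ranges of both exporters overlapped, and the few UMIs leave wide errors. Without the SOD1G93A female of pool B the log2 fold change of Slc30a1 was 0.45, and without the WT female of pool B that of Slc30a10 was 0.42. Within sex and pool, the SOD1G93A mouse was the higher in 6 of 6 pairs for Slc30a1 and in 5 of 6 for Slc30a10, without a count over all genes beside it.

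For the importers, Slc39a14 had 73.6, 94.3 and 113.4 CPM in SOD1G93A and 53.5, 62.1 and 101.2 CPM in WT astrocytes, a log2 fold change of 0.35 (SE 0.15, limma FDR = 0.302). Slc39a12, the importer counted most in this cell type, had 791.8, 927 and 1042 CPM against 764.1, 974.6 and 1228 CPM, a log2 fold change of -0.17 (SE 0.11, limma FDR = 0.510), or -0.098 without the WT female of pool C. The range of its SOD1G93A mice lay inside that of the WT mice. Slc30a3 fell below the filter on low counts in astrocytes, with 53 UMIs in all.

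The higher sums came with a larger share of astrocyte nuclei in which the genes were seen. With each nucleus thinned to 2000 UMIs, Mt1 was detected in 57.6, 68.4 and 81.9% of the astrocyte nuclei of SOD1G93A mice and in 40.8, 52.3 and 60.6% of those of WT mice. The genotypes overlapped narrowly. For Mt2 the shares were 23.0, 43.3 and 51.4% against 19.4, 26.9 and 34.1%, and for Mt3 27.3, 38.0 and 46.5% against 23.5, 30.9 and 36.7%. In neurons, thinned the same way, Mt1 was detected in 3.68, 6.39 and 11.1% of the SOD1G93A and 3.34, 4.96 and 8.47% of the WT nuclei, the level taken as background from free RNA. This is an assumption, since free RNA itself was not measured. Without thinning, the medians of Mt1 were 89.7 and 71.7% in astrocytes, at median depths of 5554.5 and 5219 UMIs per nucleus, and 24.7 and 26.7% in neurons, at 12748.5 and 12940.5 UMIs. Thinning left out 29 SOD1G93A and 47 WT astrocyte nuclei. Slc39a12 was detected in 80.0% of thinned SOD1G93A and 83.1% of thinned WT astrocyte nuclei (medians).

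The astrocyte sub-clusters deposited by the authors differed in metallothionein level. They were made from the expression of these same nuclei, so that the levels below describe them and test nothing. In WT mice, the median of Mt1 was 679 CPM in sub-cluster 0, 190 CPM in sub-cluster 1, 156 CPM in sub-cluster 2, 1077 CPM in sub-cluster 3 and 1375 CPM in sub-cluster 4. The mix of sub-clusters moved with genotype: sub-cluster 1, low in Mt1, held 4.81, 14.4 and 21.6% of the astrocyte nuclei of SOD1G93A mice and 26.9, 38.2 and 42.6% of those of WT mice, without overlap. Sub-cluster 3, high in Mt1, held 13.4, 17.5 and 31.1% against 7.56, 8.65 and 12.0%, also without overlap. Sub-cluster 4 held 7.87, 16.2 and 33.3% against 2.63, 6.04 and 17.7%. The percent of mitochondrial UMIs differed between the sub-clusters too. Its median over WT mice was 0.312 in sub-cluster 1 and 0.435 in sub-cluster 2, 1.44 in sub-cluster 0 and 1.40 in sub-cluster 3, and 6.62 in sub-cluster 4. In SOD1G93A mice it was 2.95 in sub-cluster 3, and its part in the levels of Mt1 was not tested within sub-clusters.

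Within sub-clusters, no gene of the 8 was called: 0 of 40 tests over the 12 sub-clusters of astrocytes, oligodendrocytes and microglia that could be fitted passed limma's FDR < 0.1, against 0.113% of all tests called. With so low a share, a count of 0 among 40 says nothing about the 8 genes. At an unadjusted p under 0.05 there were 11 of the 40, against 5.65% of all tests in limma. Members chosen with earlier results of these data known make this count no independent test either. The log2 fold change of Mt1 was 0.31 (SE 0.12, limma FDR = 0.796) in sub-cluster 0, 0.41 (SE 0.21) in sub-cluster 1, 0.42 (SE 0.25) in sub-cluster 2, 0.49 (SE 0.15, limma FDR = 0.332) in sub-cluster 3 and 0.15 (SE 0.20) in sub-cluster 4. All 5 estimates were positive and below the 0.79 of all astrocytes together. Single mice moved some of them: in sub-cluster 1 the value was 0.27 without the SOD1G93A female or without the SOD1G93A male of pool B, and in sub-cluster 2 it was 0.25 without the SOD1G93A male and 0.26 without the WT male of pool A. For Mt3 the signs differed, from 0.44 (SE 0.20) in sub-cluster 3 to -0.54 (SE 0.40) in sub-cluster 1, and in sub-cluster 4, its highest, SOD1G93A mice had 443.3, 569.2 and 812.7 CPM and WT mice 330.6, 934.5 and 1186 CPM. Among the tests in astrocyte sub-clusters that passed the filter on low counts, the highest fold change was that of Slc39a14 in sub-cluster 1, 0.97 (SE 0.27, limma FDR = 0.211).

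With the 5 sub-clusters held at the WT mix in every mouse, a setting chosen after the data were seen, the log2 fold change was 0.30 (SE 0.11) for Mt1, 0.24 (SE 0.15) for Mt2 and -0.08 (SE 0.13) for Mt3. With equal weights it was 0.26 (SE 0.12), 0.14 (SE 0.15) and -0.18 (SE 0.15). None of the 3 was called in either, and limma called 1 of all 9347 genes in each. The same model on unweighted CPM called 190 of the 9347 genes, the 3 metallothioneins among them, at 0.87 for Mt1, 0.74 for Mt2 and 0.59 for Mt3. The sub-clusters were made from the expression of these same nuclei, and some held as few as 3 nuclei of a mouse. These fits therefore cannot separate the parts of mix and of level within a sub-cluster. Their parts in the astrocyte result were not tested.

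**Figure D3:**
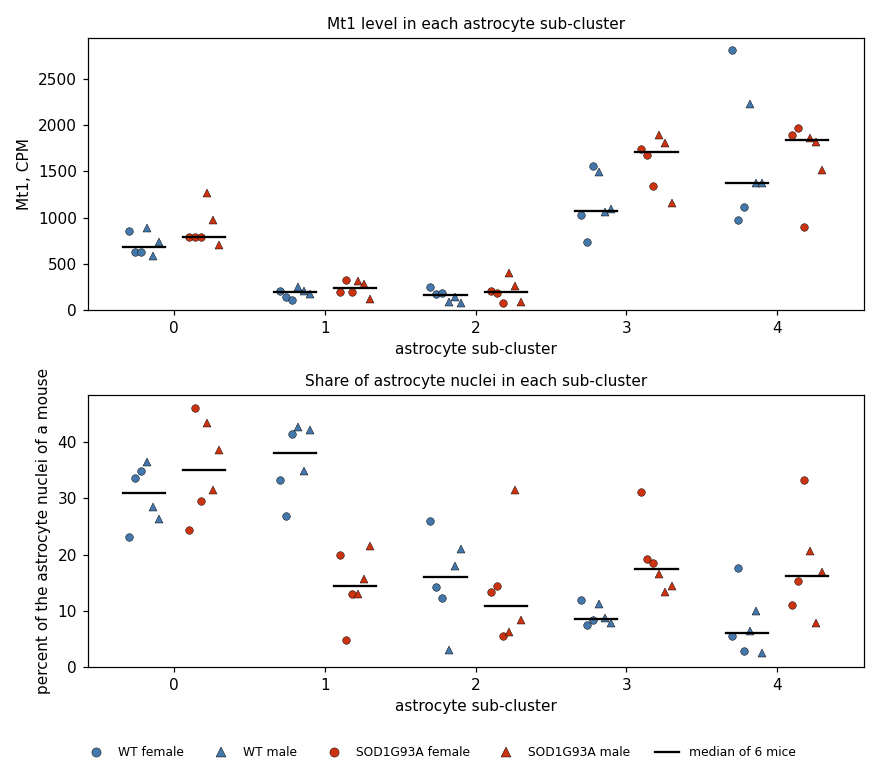
Above, the level of Mt1 in CPM in each astrocyte sub-cluster (0 to 4), and below, the percent of the astrocyte nuclei of a mouse in each sub-cluster, with 1 point per mouse and bars at the median of 6 mice. Sub-clusters 3 and 4 hold the highest Mt1 levels, and SOD1G93A mice have a smaller share of nuclei in sub-cluster 1 (median 14.4 against 38.2%) and a larger one in sub-cluster 3 (17.5 against 8.65%).

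Mitochondrial reads, a sign of cytoplasm left on nuclei, also moved with genotype in astrocytes. The median percent per mouse was 1.12, 1.37 and 2.33 in SOD1G93A and 0.57, 0.683 and 1.31 in WT mice. In nuclei under 1%, Mt1 had 241.5, 477.6 and 846.9 CPM in SOD1G93A and 168, 262 and 456.7 CPM in WT mice. In nuclei at 1% or more it had 1068, 1330 and 1944 CPM against 796.6, 832.9 and 1182 CPM. Mt1 was thus lower in nuclei with few mitochondrial reads. It was higher in SOD1G93A mice in each class, with log2 fold changes of 0.78 (SE 0.17, limma FDR = 0.0402) and 0.61 (SE 0.11, limma FDR = 0.0243). The cut at 1% fixes neither the mitochondrial percent nor the sub-cluster mix within a class, and their part in these values was not tested. Mt2 had 0.57 (SE 0.19) and 0.56 (SE 0.12), and Mt3 0.38 (SE 0.20) and 0.38 (SE 0.13), and neither gene was called in either class by limma (Mt2 FDR = 0.201 and 0.115, Mt3 FDR = 0.465 and 0.448). In this split, chosen after the data were seen, 102 of 6684 genes were called in the lower class and 8 of 6294 in the upper. The summed level of 8 astrocyte markers (Slc1a2, Slc1a3, Gja1, Gpc5, Aqp4, Slc4a4, Aldh1l1 and Ntsr2) was 15089, 18836 and 20695 CPM in SOD1G93A and 18426, 20793 and 23931 CPM in WT astrocytes, with overlap. Gpc5, a glypican, had 4347, 5715 and 7455 CPM in SOD1G93A and 8354, 8800 and 11788 CPM in WT astrocytes, lower without overlap. Aqp4, the astrocyte water channel, had 1107, 1137 and 1488 CPM in SOD1G93A and 583.2, 650.1 and 776.2 CPM in WT astrocytes, without overlap. Slc1a2, the main glutamate transporter, had 4611, 6051 and 6298 CPM against 4456, 5242 and 5796 CPM, with overlap. Of the others, Gja1 had the higher median in SOD1G93A mice (823 against 559 CPM), Slc4a4 (4250 against 4854 CPM), Slc1a3 (311 against 325 CPM) and Aldh1l1 (74.2 against 81.3 CPM) the lower one, and Ntsr2 was at 190 and 191 CPM, all with overlap. Gfap, the intermediate filament raised in reactive astrocytes, had a log2 fold change of 1.12 (SE 0.11, limma FDR = 7.32e-07) in the same sums.

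**Figure D4:**
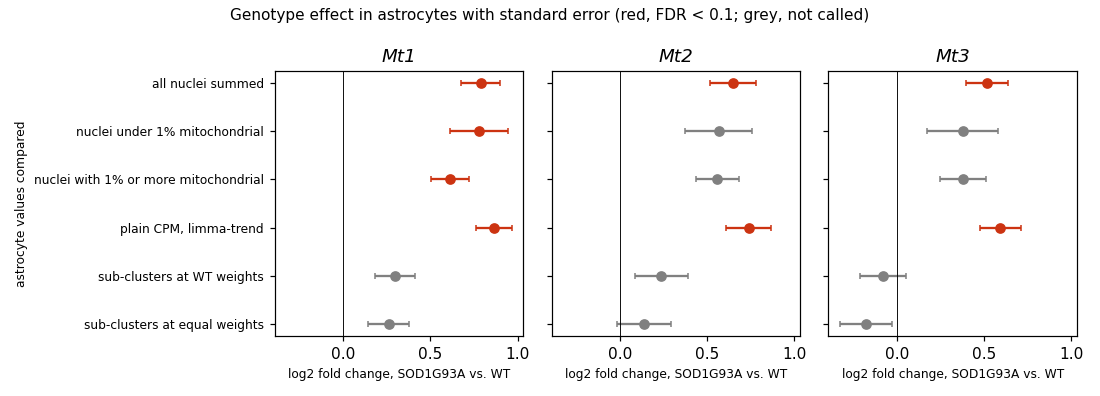
Log2 fold change of Mt1, Mt2 and Mt3 in astrocytes, SOD1G93A vs. WT, with bars of 1 standard error, for all nuclei summed, for nuclei under and at or over 1% mitochondrial UMIs, for plain CPM and for sub-clusters at the WT mix or at equal weights (red, FDR < 0.1, and grey, not called). Mt1 keeps 0.61 to 0.87 in the first 4 settings and has 0.26 and 0.30 with the sub-cluster mix held.

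The genotype effect on the members in astrocytes was not called as different between the sexes. For Mt1 the log2 fold change was 0.77 (SE 0.16) in females and 0.81 (SE 0.15) in males, and the difference, males minus females, was 0.04 (SE 0.22). It was 0.15 (SE 0.26) for Mt2, -0.11 (SE 0.24) for Mt3 and -0.44 (SE 0.21) for Slc39a12, whose fold change was -0.39 (SE 0.15) in males. Over all cell types and sub-clusters fitted, 0 of 79 tests of the difference were called by limma, against 0.00742% of all such tests. With so low a share, a count of 0 among 79 says nothing about the members. At an unadjusted p under 0.05 there were 5, against 3.48% of all.

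In the other 9 cell types, none of 32 tests of the 8 genes was called by limma, against 0.298% of all tests of those types. With so low a share, a count of 0 among 32 says nothing about the 8 genes. At an unadjusted p under 0.05 there were 4, against 6.17% of all. Whether the astrocyte effect exceeded that of another type was tested directly for 7 types with nuclei of every mouse, and 2 of 48 tests were called, both of Mt1. In neurons Mt1 had 15.7, 22.8 and 37.2 CPM in SOD1G93A and 14.7, 21.6 and 37.7 CPM in WT mice, and the astrocyte effect was larger by 0.68 (SE 0.14, limma FDR = 0.0294, 0.835% of genes called). In endothelial cells Mt1 had 176.4, 363.1 and 423.4 CPM against 165, 346 and 510.2 CPM, and the astrocyte effect was larger by 0.89 (SE 0.18, limma FDR = 0.0637, 0.269% of genes called). The genotypes overlapped almost wholly in both types. Since the neuronal level of Mt1 was taken above as background from free RNA, which the 4 mice of a pool share, a genotype effect in neurons themselves cannot be told apart from that background, and the difference may only repeat the astrocyte result.

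The same difference for Mt1 was not called against Schwann or meningeal cells, at 1.10 (SE 0.25, limma FDR = 0.161, 0.023% of genes called), where SOD1G93A mice had 170.1, 486.5 and 591.2 CPM and WT mice 323.7, 654 and 800 CPM. Nor was it called against oligodendrocytes (0.56, SE 0.18, limma FDR = 0.515, 0.0273% called), OPCs (1.31, SE 0.40, limma FDR = 0.604, 0.0117% called), microglia (0.41, SE 0.22, limma FDR = 0.645, 0.252% called) or motor neurons (0.11, SE 0.48, limma FDR = 0.965, 1.5% called). The last came from 67 motor neuron nuclei, with 1 to 11 per mouse.

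**Figure D5:**
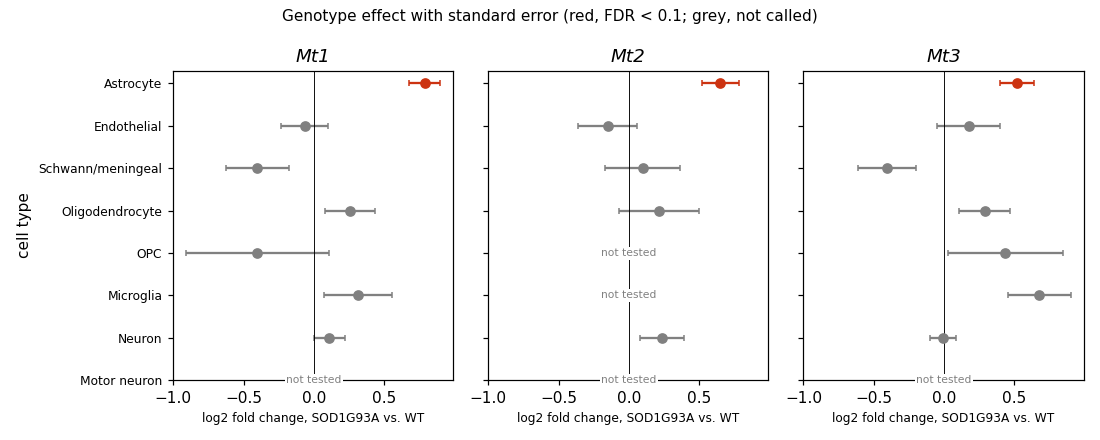
Log2 fold change of Mt1, Mt2 and Mt3, SOD1G93A vs. WT, with bars of 1 standard error, in 8 cell types (red, FDR < 0.1, and grey, not called, and types in which a gene fell below the filter are marked as not tested). Only the astrocyte estimates, at 0.79, 0.65 and 0.52, are red, and those of Schwann or meningeal cells and endothelial cells lie on either side of 0.

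Among single values outside astrocytes, the furthest from 0 among the tests with an unadjusted p under 0.05 was that of Slc39a12 in oligodendrocytes. It had 18.8, 42.9 and 61.9 CPM in SOD1G93A and 60.5, 80.5 and 85.7 CPM in WT oligodendrocytes, a log2 fold change of -0.99 (SE 0.25, limma FDR = 0.719). Most of it came from oligodendrocyte sub-cluster 3, which held 166 of 297 UMIs in SOD1G93A and 668 of 856 in WT mice. That sub-cluster had 8835 to 18333 CPM of the astrocyte markers in SOD1G93A and 7749 to 12524 CPM in WT mice, and it held 0.633, 2.22 and 9.09% of SOD1G93A and 3.80, 8.37 and 13.1% of WT oligodendrocyte nuclei. In the remaining oligodendrocytes Slc39a12 had 12.6, 14.9 and 44.4 CPM against 12.7, 20.4 and 43.1 CPM, and the genotypes overlapped.

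Slc30a1 in endothelial cells, where the exporter is concentrated, had 220.5, 311 and 414.9 CPM in SOD1G93A and 295.3, 397.8 and 472.3 CPM in WT mice, a log2 fold change of -0.31 (SE 0.15, limma FDR = 0.980), or -0.20 without the SOD1G93A female of pool B. The genotypes overlapped. Its effect in astrocytes minus that in endothelial cells was 1.06 (SE 0.31, limma FDR = 0.182). Mt3 in microglia had 7.76, 19.3 and 26.6 CPM against 9.97, 12.5 and 21.8 CPM, a log2 fold change of 0.68 (SE 0.22, limma FDR = 0.339) that was 0.34 without the SOD1G93A female of pool B. Slc30a3 in neurons had 5.76, 7.40 and 8.89 CPM in SOD1G93A and 5.78, 7.42 and 9.05 CPM in WT mice, with a log2 fold change of 0.00 (SE 0.11, limma FDR = 1.00).

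Between the sexes, 1 of 39 tests over the cell types was called, against 0.159% of all tests. Slc39a12 in microglia had 49.2, 78.2 and 119 CPM in females and 21.6, 41.0 and 51.3 CPM in males, a log2 difference, females minus males, of 1.09 (SE 0.17, limma FDR = 0.0030, 0.434% of microglial genes called). The sexes overlapped narrowly. The 8 astrocyte markers were all present in these nuclei, and their sum was 1757, 2341 and 3001 CPM in females and 1476, 1885 and 2823 CPM in males. Of single astrocyte genes, only Slc1a2, Aqp4 and Gfap, which is not among the 8, were looked at by sex, and all had higher medians in females. Slc1a2 had 318.2, 350 and 459.3 CPM in females and 123.8, 218.3 and 329.1 CPM in males, Aqp4 medians of 36.6 and 17.0 CPM, and Gfap medians of 19.0 and 4.75 CPM. The part of astrocyte RNA in the sex difference was not tested. Per 1000 UMIs of those markers Slc39a12 had 24.4 UMIs in microglia and 49.7 in astrocytes.

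Among WT neuron sub-types, Slc30a3 was highest in mid inhibitory neurons, at 10.9, 18.0 and 25.6 CPM. Dorsal inhibitory neurons had a median of 8.95 CPM, dorsal excitatory 7.47 CPM and ventral excitatory 4.10 CPM. In mid excitatory neurons 1 UMI was counted in 6 WT mice. Slc39a14 varied less, with medians from 26.0 CPM in dorsal inhibitory to 35.4 CPM in ventral mixed neurons, and neighbours in that order overlapped. Mt3 had medians from 13.2 CPM in ventral inhibitory to 25.5 CPM in mid inhibitory neurons, and the ranges of these sub-types overlapped. The summed astrocyte markers had medians of 685 CPM in ventral inhibitory and 1477 CPM in mid inhibitory neurons, but 848 CPM in dorsal excitatory neurons, where Mt3 was at 25.2 CPM, and 4196 CPM in dorsal inhibitory neurons, where it was at 23.0 CPM. How much of the neuronal Mt3 was free RNA was not tested.

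Of 30 other genes listed for zinc or copper (the remaining Slc30 and Slc39 transporters, Mt4, the metal sensor Mtf1, Mtf2, listed for its name and not known to handle metals, and copper transporters and chaperones), 20 were tested in astrocytes and 0 were called by limma, against 2.29% of all genes. At that share, a count of 0 among 20 says nothing about the list. At an unadjusted p under 0.05 there were 4, against 13.6% of all 9347 genes. Their median log2 fold change was 0.12, beside 0.02 over all 9347 genes. The 4, named after their values were seen, were Atp7a, a copper pump, at -0.40 (SE 0.15, limma FDR = 0.210), the importers Slc39a1 at 0.84 (SE 0.32, limma FDR = 0.227) and Slc39a7 at 0.87 (SE 0.37, limma FDR = 0.277), and Mtf2 at -0.38 (SE 0.15, limma FDR = 0.258). Of 96 tests in the other cell types and 77 in the sub-clusters, 0 were called, against 0.298% and 0.113% of all tests there, and 4 and 3 had an unadjusted p under 0.05, against 6.17% and 5.65% of all, so that these counts do not set the list apart.

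Over the WT means of the 8 cell types with nuclei of every mouse, the genes most like 6 of the members in log2(CPM + 1) were taken among 12778 genes. The nearest to Mt1 were Cst3 (Pearson r = 0.997), a secreted protease inhibitor, Zfp24 (0.996) and Apoe (0.993), a lipid carrier of astrocytes. Apoe (0.993) and Mt1 (0.985) with Tril (0.984) were the nearest to Mt2, and the astrocyte enzyme Aldoc (0.989), Enho (0.987) and Clu (0.982) to Mt3. For Slc39a12 they were Slc7a10 (0.987), Etnppl (0.984) and Acot11 (0.983), for Slc39a14 B3galt1 (0.990), Gm49380 (0.984) and Adgrb3 (0.980), and for Slc30a10 Sap18 (0.985), Arl5b (0.984) and Klhl36 (0.981). With 8 points, which share their mice and libraries, such values describe the likeness of pattern only.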

How the data were processed

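The lumbar cord of 12 mice was measured in 3 pools of 4 hashtagged mice. The authors deposited raw UMI counts per gene and nucleus from Cell Ranger 3.1 (STAR 2.5.1b, mm10 with introns counted), without normalization, after bcl2fastq 2.20.0.422, and clustered nuclei with Seurat (version 4.0.3). The authors removed nuclei with under 200 genes, over 10% mitochondrial UMIs or hashtags of several mice or none. The deposited percent column gives the mitochondrial share of a nucleus, and the mitochondrial genes themselves had been removed. Doublets within 1 mouse are not marked. Cell types, sub-types and sub-clusters are those deposited, and the groups of mice come from the deposited table of mice.

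Counts were summed per mouse and class. Genes were filtered with filterByExpr (minimum count 10) on the 4 groups of sex and genotype, scaled with TMMwsp (edgeR 4.0.16) and fitted with voom and robust eBayes (limma 3.58.1, R 4.3.3) with terms for group and pool, in every class with at least 2 mice per group. P values were adjusted by Benjamini-Hochberg over all genes of a class, with a threshold of FDR < 0.1. Differences between cell types used both sums of a mouse, with terms for mouse, type, and type by sex, pool and genotype. Fractions of nuclei were also computed after thinning to 2000 UMIs. The scripts were tested on simulated data. Alternatives were TMM or no factors, no filter or a minimum of 30, eBayes without robust fitting, no pool term, edgeR, DESeq2 1.42.0, CPM averaged over nuclei, each sex alone and each mouse left out. The integrated values deposited by the authors were not used.

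Pools are batches by the labels, and nuclei of 1 pool shared capture and library. Whether the cords of 1 pool were also processed together is not stated. In astrocytes, deviations from the group means correlated with a median r of 0.0265 over the 18 pairs of mice in the same pool. These ran from -0.0947 to 0.331, with 4 over 0.1, and the median over other pairs was -0.0149. Deviations cancel within a group, so both kinds of pair are tied to each other. Without the pool term, 105 of 9347 genes were called in astrocytes, against 214 with it. P values measure the spread between mice. The members and lists were chosen with earlier results of these data known. Members were named in every class where measured, genes of the metal list where called, and the 3 genes most like each member except Slc30a1 by Pearson r among genes of at least 10 CPM in 1 type. Those of Slc30a3 are not reported here.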

Additional observations from a re-analysis of the deposited data

Results flagged for a closer look

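A single mouse stood apart from the other 5 of its genotype, by Dixon's criterion at the 95% level, in 7 of 121 groups of 6 mice examined, and chance alone gives about 1 in 20. In astrocytes, the WT female of pool C had 101.2 CPM of Slc39a14, with the other WT mice at 53.5 to 70.2 CPM. Within astrocyte sub-cluster 0, the WT female of pool A had 410 CPM of Mt2, with the others at 204.9 to 273.3 CPM, and within sub-cluster 1 the WT male of pool A had 112.7 CPM of Mt3, with the others at 69.4 to 81.8 CPM. In microglia, the WT female of pool A had 21.8 CPM of Mt3, with the others at 9.97 to 14.3 CPM. Slc39a12 set 3 mice apart: in OPCs the SOD1G93A female of pool C had 180.5 CPM (others 0 to 64.0 CPM) and the WT male of pool B 161.9 CPM (others 18.6 to 58.9 CPM), and in Schwann or meningeal cells the SOD1G93A female of pool A had 186 CPM (others 56.3 to 101.5 CPM). The OPC value of the SOD1G93A female of pool C came from 2 nuclei with 11083 UMIs of all genes.

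The genotype effect on Mt1 differed between cell types in the test of the difference itself, being larger in astrocytes than in endothelial cells by 0.89 on the log2 scale and than in neurons by 0.68. The neuronal level was taken as background from free RNA shared within a pool, so that a genotype effect in neurons themselves cannot be told apart from it.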

How the results depend on the processing

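The count of 3 called genes in astrocytes held with TMM, without scaling factors, without the filter or with a minimum count of 30, with eBayes not robust, and with edgeR, DESeq2 and CPM averaged over nuclei, where the share of all genes called went from 0.892% (no filter) and 1.56% (DESeq2) to 3.70% (minimum count 30), against 2.29%. Without the replicate block (the pool term) it was 1 (105 of 9347 genes called in all), with females only 0 (9 of 7191), with males only 5 (522 of 9576), with the WT mix or equal weights of the sub-clusters 0 each, and in nuclei under 1% or at 1% or more mitochondrial UMIs 1 each. With 1 mouse left out it was 2 to 3, and the share of all genes called was 3.95% without the SOD1G93A female of pool A, 3.77% without the WT female of pool B, 0.787 to 1.35% without the SOD1G93A male of pool A, the SOD1G93A female or male of pool C, the WT female of pool A or C or the WT male of pool C, and 1.61 to 3.07% otherwise. In the other cell types, where 0 were called, it was 3 without the filter, all in motor neurons of few nuclei (457 of 19784 genes called), and 1 with males only, in microglia (179 of 10116), and 0 to 0 with 1 mouse left out. In the sub-clusters, again from 0, it was 3 without the filter, of which 2 lay in astrocyte sub-cluster 1, where 6749 of 17948 genes were called, and 1 in sub-cluster 3 (37 of 17221). With males only it was 4, from astrocyte sub-cluster 0 (142 of 5795) and microglia sub-cluster 0 (350 of 9409), and it was 0 to 1 with 1 mouse left out, the 1 appearing without the WT female of pool A in microglia sub-cluster 0 (166 of 9505 genes, against 36 of 8010 with all mice) or without that of pool C in astrocyte sub-cluster 3 (4 of 3635, against 2 of 3173).

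Sign changed for Mt3 in astrocytes at equal weights (-0.18) and the WT mix (-0.080), for Slc39a12 with females only in astrocytes (0.069) and in microglia (0.0049), and for Mt1 with females only in astrocyte sub-cluster 2 (-0.19). Each sex alone leaves 3 mice per genotype by construction, and the cause of the other changes was not tested. Of 385 values of single genes, 357 kept direction and side of the threshold, 16 lost the call, 7 gained one and 5 changed sign. The difference in the share of astrocyte nuclei with Mt1 was 16.2 percentage points at 2000 UMIs, 21.9 at 1000 and 18.0 without thinning. Precision is limited by 45 to 250 astrocyte nuclei per mouse and, for Slc30a1, Slc30a3 and Slc30a10, by few UMIs.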
